A study of Mus musculus with 8 samples.

Results

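The receptors and co-receptors of Sonic hedgehog (Shh) are encoded by 6 genes, Ptch1, Smo, Hhip, Boc, Cdon and Gas1, and the accessible chromatin around them was described in cerebellar granule neuron progenitors (GNPs) of the mouse. Members were all peaks of 3 deposited lists that overlapped the gene body of one of these genes or the 50 kb on either side of it (mm10, GENCODE annotation). This rule uses position alone and no measured value. It took 245 of the 434365 peaks of the 3 lists, namely 83 of 152984 in WT, 61 of 106974 in het and 101 of 174407 in mutant. Some of them lie in or nearer to other genes of the same windows, such as Fancc beside Ptch1, Tspan33 and Ahcyl2 beside Smo, Cfap44 beside Boc, and Gm1113 and Ddx25 beside Cdon. The same holds at Gas1, beside Gm48488.

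ATAC-seq, in which the Tn5 transposase cuts and tags open DNA, was performed on GNPs that had been freshly isolated from cerebella at postnatal day 7 without any treatment, from mice of a strain labelled C56Bl6/J. WT cells carried floxed Chd7 without Cre [Chd7 f/f] (3 libraries), mutant cells were homozygous [Atoh1-Cre::Chd7 f/f] (3 libraries) and het cells were heterozygous [Atoh1-Cre::Chd7 f/+] (2 libraries). Chd7 encodes an ATP-dependent chromatin remodeller, and the series asks which open chromatin depends on it. Atoh1-Cre is driven from the gene of a transcription factor of the granule lineage, so the deletion is made in that lineage, and the study describes Chd7 protein that remains in the posterior lobe, probably from less recombination there. The WT and mutant replicates are described by the study as technical, and pups were used without regard to sex.

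Each list was called on the pooled libraries of its genotype. Replicate errors therefore could not be given, and differences between genotypes were not tested against the spread between libraries or mice. The lists rest on 50394313 tags in WT, 51030229 in mutant and 30923002 in het after duplicate filtering. Het peaks were called from another alignment and with longer tag extension, so that their heights are not on the scale of the other lists and genotype and processing cannot be told apart there. The headers also give a smaller tag size, as determined by the peak caller, for mutant than for WT, at 76 against 107 bp. The start site of Chd7 itself carried a peak with a summit pileup of 57 in WT and 52 in mutant, which lies at the start of the gene and checks nothing about the deletion. As a check of the cell type, a peak lay within 1 kb of an annotated start site in 5 of 6 marker genes of granule progenitors in WT, with Atoh1, Barhl1, Zic1, Pax6 and Neurod1 at 75.3 to 91.9% on the scale of peak strength explained below and Zic2 without one. Start sites of other cell types were also open, among them those of 2 of 3 Purkinje cell genes (Calb1 and Car8, at 89.1 and 92.9%, but not Pcp2) and those of all 3 astroglial genes, at 44.5 to 57.5%. In WT a start peak was also found at 1 of 3 oligodendrocyte genes, 2 of 2 interneuron genes, 1 of 2 microglial genes and 2 of 2 endothelial genes. In these pooled cells, open chromatin in fewer cells and less open chromatin per cell cannot be told apart.

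In the developing cerebellum, Shh from Purkinje cells drives the division of granule progenitors. Ptch1 is its receptor and, without ligand, holds back Smo, the seven-pass membrane protein that passes the signal on to the Gli transcription factors. Hhip binds the ligand and sequesters it, and Boc, Cdon and Gas1 are co-receptors that present it to Ptch1. Ptch1 and Hhip are themselves targets of the pathway, so that Gli factors act at their regulatory sequences.

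The sequences that the results turn on are given first, each centred on the WT summit with 100 bases on either side. All are read 5′ to 3′ on the plus strand of GRCm38 (mm10), also for the minus-strand genes Ptch1, Hhip, Boc and Gas1. Capitals mark the words searched, which were GACCACCCA (the Gli site), CAGCTG and CAGATG (E-boxes, bound by basic helix-loop-helix factors such as Atoh1) and CAGCAGG (a Zic word), on both strands, and the palindrome of nuclear factor I. Of the 83 WT windows 4 held the Gli word, and 3 of them are shown. The fourth, at the 5′ end of Ptch1, lies in annotated untranslated sequence and is not printed. In the order given these are a peak 662 bp upstream of an annotated start of Ptch1 (chr13:63566297-63566497), one between Tspan33 and Smo (chr6:29718908-29719108) and one in an intron of Boc (chr16:44552107-44552307), which also has the lowest mutant to WT ratio at that gene.
Ptch1 Gli window: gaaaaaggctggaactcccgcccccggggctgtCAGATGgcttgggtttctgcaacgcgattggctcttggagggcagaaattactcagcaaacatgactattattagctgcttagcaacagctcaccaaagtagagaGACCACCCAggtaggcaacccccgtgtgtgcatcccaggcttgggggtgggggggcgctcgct
Smo locus Gli window: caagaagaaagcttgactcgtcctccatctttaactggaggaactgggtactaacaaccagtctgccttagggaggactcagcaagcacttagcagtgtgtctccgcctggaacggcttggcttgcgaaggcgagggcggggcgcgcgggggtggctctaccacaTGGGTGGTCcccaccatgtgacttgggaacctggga
Boc Gli window: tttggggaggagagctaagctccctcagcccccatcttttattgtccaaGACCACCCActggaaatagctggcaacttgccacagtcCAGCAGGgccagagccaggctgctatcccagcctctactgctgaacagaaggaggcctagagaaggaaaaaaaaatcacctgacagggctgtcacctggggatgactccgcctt

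The next set holds the tallest intronic or upstream WT peak of each gene. It comprises Ptch1 intron (chr13:63567952-63568152), Smo intron (chr6:29748801-29749001), the upstream side of the Hhip start (chr8:80058061-80058181, cut to 121 bases outside untranslated sequence), Boc intron (chr16:44503292-44503492), Cdon upstream (chr9:35402781-35402981) and Gas1 upstream (chr13:60177631-60177831). The Smo sequence is a tandem repeat without any CpG.
Ptch1 intron: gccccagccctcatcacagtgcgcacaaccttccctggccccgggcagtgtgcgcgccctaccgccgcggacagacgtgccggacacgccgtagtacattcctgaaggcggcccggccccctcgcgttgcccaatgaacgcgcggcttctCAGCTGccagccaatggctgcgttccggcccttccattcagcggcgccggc
Smo intron repeat: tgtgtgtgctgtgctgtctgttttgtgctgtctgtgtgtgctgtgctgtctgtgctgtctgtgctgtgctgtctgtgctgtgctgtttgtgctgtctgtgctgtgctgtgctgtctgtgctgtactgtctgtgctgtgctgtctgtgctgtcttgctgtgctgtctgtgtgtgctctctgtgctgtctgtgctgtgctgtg
Hhip start: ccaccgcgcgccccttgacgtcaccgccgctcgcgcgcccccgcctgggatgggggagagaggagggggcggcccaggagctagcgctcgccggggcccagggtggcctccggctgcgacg
Boc intron: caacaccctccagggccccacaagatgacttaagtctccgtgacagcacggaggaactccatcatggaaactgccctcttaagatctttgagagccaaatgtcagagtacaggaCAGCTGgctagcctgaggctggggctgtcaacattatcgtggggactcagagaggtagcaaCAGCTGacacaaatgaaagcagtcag
Cdon upstream: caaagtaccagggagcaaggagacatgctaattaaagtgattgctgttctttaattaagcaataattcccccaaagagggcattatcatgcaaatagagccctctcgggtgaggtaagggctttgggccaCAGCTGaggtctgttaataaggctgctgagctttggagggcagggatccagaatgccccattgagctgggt
Gas1 upstream: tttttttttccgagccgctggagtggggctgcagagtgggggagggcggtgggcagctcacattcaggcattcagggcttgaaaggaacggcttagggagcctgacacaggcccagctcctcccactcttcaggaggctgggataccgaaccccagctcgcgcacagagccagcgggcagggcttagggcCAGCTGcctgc

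The last pair are the peaks within the bodies of Ptch1 and Smo that differed most between WT and mutant, 1 higher in mutant at Ptch1 (chr13:63551964-63552164) and 1 lower in mutant at Smo (chr6:29756078-29756278). Both carry the CAGATG E-box, which stands on the minus strand here and reads CATCTG, and the Smo peak carries it 2 times.
Ptch1 higher in mutant: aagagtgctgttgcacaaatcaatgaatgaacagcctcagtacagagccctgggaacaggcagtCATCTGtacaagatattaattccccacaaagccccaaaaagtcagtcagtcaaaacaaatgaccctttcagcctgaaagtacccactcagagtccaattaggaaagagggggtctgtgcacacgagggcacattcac
Smo lower in mutant: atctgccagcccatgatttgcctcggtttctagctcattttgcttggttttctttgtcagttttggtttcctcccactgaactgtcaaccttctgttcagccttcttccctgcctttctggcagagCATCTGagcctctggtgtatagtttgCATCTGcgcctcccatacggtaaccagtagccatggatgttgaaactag

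Across all WT windows of this length the Gli word was rare. It was found in 4 of the 83 windows at the 6 loci (4.82%) and in 429 of the 152982 windows of the whole list (0.280%). Of these 4, 2 lay at Ptch1, 1 in the Smo locus, 1 at Boc and 0 at Hhip, Cdon and Gas1. The other words were about as frequent at the 6 loci as elsewhere, with CAGCTG in 22.9% against 23.6%, CAGATG in 28.9% against 28.6% and CAGCAGG in 14.5% against 12.2%. Boc held 6 of the 12 windows with the Zic word, Cdon 6 of the 19 with CAGCTG and Ptch1 9 of the 24 with CAGATG. These loci held 21, 16 and 17 of the 83 windows and are named because they had the highest count for each word. No difference between loci is read from such small counts. The nuclear factor I palindrome was in none of the 83 windows and in 0.0863% of all windows. A match is a description of the letters and no measure of binding. Median GC content was 53.7% at the 6 loci against 51.7% over all windows, and 65.4% in the 18 windows within 1 kb of a start site.

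The 6 loci were open in every genotype. All 6 genes had a peak within 1 kb of one of their own annotated start sites in all 3 lists. Peak strength was read as a rank within each list, on which a peak at 90% has a −log10 q that at least equals that of 90% of its list. Het ranks come from a shorter list with other processing, so a lower rank in het is not read as less open chromatin. The median rank of the members was 58.0% in WT, 53.9% in mutant and 57.0% in het. In WT they covered ranks from 6.97 to 99.3%. Of the 83 WT members, 18 (21.7%) lay within 1 kb of a start site of any gene, against 16.1% of all WT peaks, 34 in introns, 10 in exons and 21 between genes.

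The loci differed in how many peaks they held and where these lay. Boc (chr16:44485049-44558897, minus strand) held most, with 21 WT, 18 het and 25 mutant peaks, of which 11, 9 and 17 had Boc as the gene with the nearest start. Ptch1 (chr13:63508328-63573598, minus strand) held 17, 11 and 19 and Cdon (chr9:35421128-35507652, plus strand) 16, 11 and 21. Smo (chr6:29735503-29761365, plus strand) held 13, 10 and 15, of which only 2 in WT had the Smo start as the nearest, since the genes around it are close. Hhip (chr8:79965851-80058006, minus strand), with no other gene in its window, held 9, 7 and 14, and the short gene Gas1 (chr13:60174405-60177365, minus strand) 7, 4 and 7. Of the Gas1 peaks, 0 in each list had Gas1 as the gene with the nearest start. Per 100 kb of window this came to 12.1 WT peaks at Boc, 10.3 at both Ptch1 and Smo, 8.58 at Cdon, 6.80 at Gas1 and 4.68 at Hhip. The plot of rank against distance from the gene start shows the strongest peaks of Ptch1 in the first part of the gene body, those of Boc along the whole gene body and those of Cdon outside it.

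**Figure D1:**
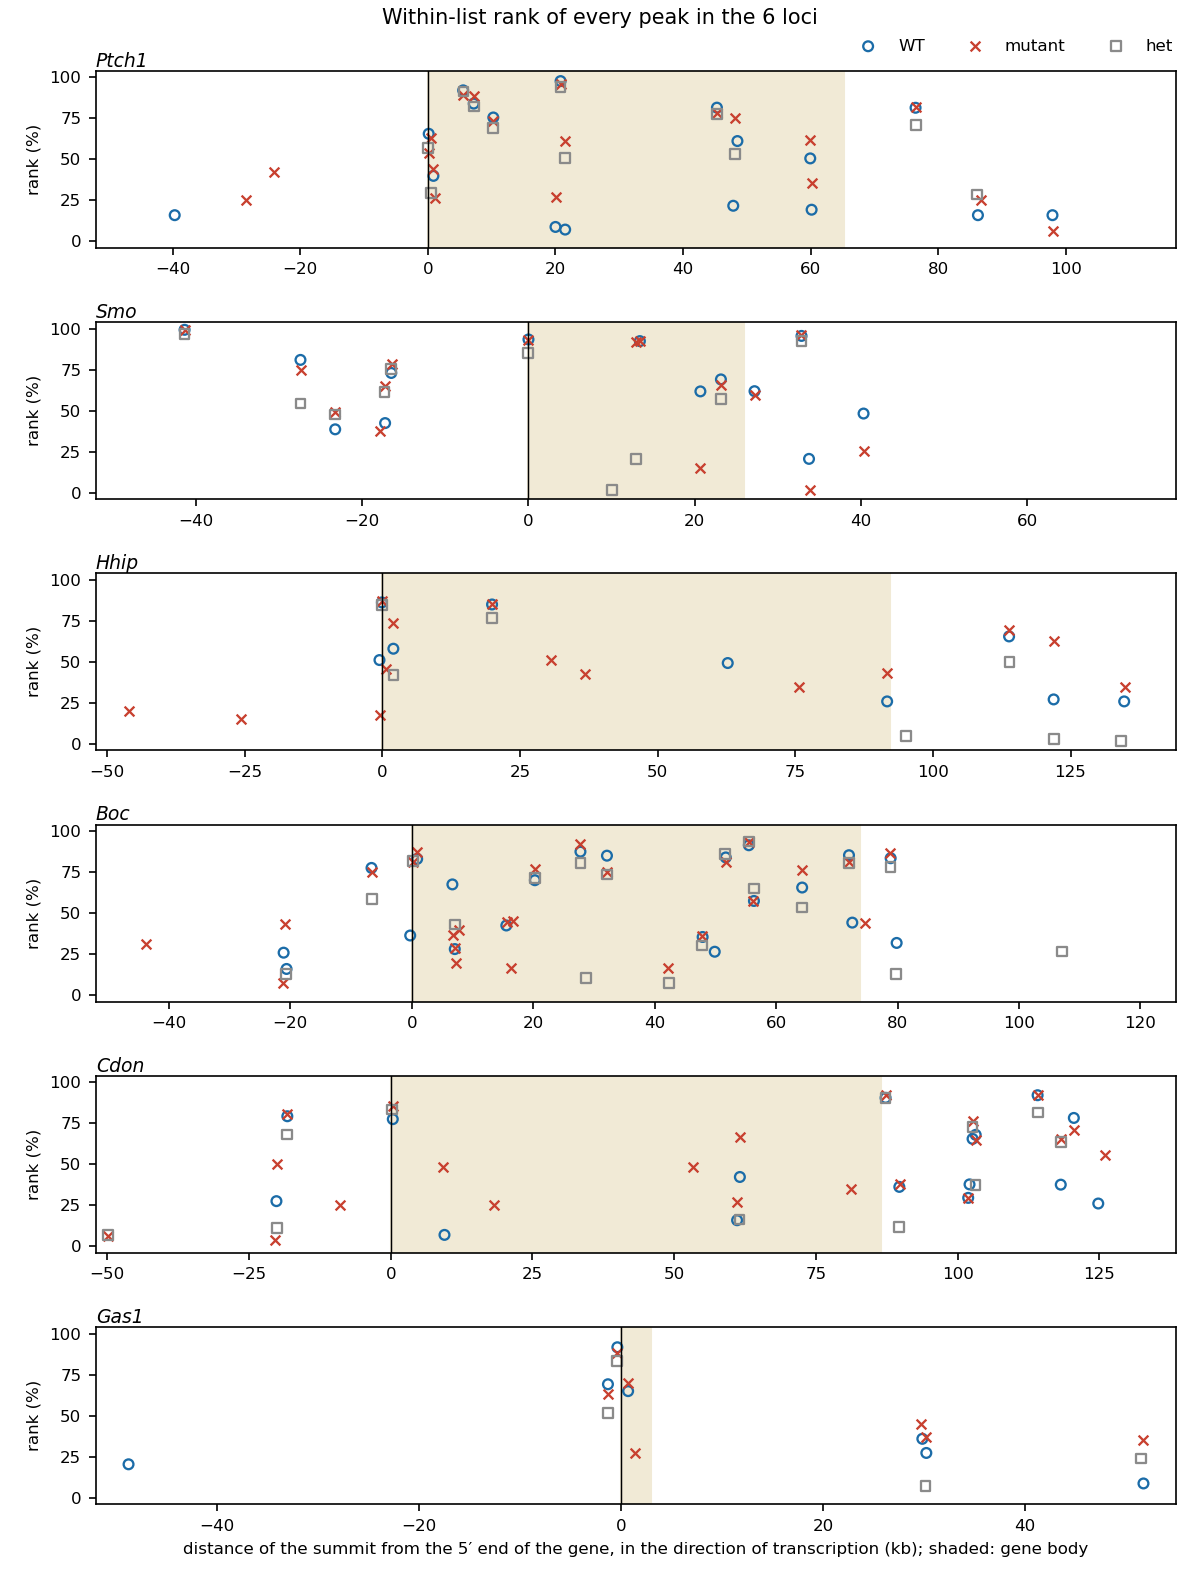
Within-list rank (percent) of each peak of the 6 loci against the distance of its summit from the 5′ end of the gene in kb, with circles for WT, crosses for mutant, squares for het and the gene body shaded. Most strong peaks appear in all 3 lists at the same place. The Smo start, for example, stands at 93.4% in WT, 92.9% in mutant and 85.0% in het. The Smo repeat peak at 13.4 kb stands at 92.4 and 92.6% in WT and mutant. The het peak of that region, at 20.3%, has its summit at 13.0 kb.

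Ptch1, the receptor, had 10 annotated transcripts with starts spread over its gene body, and 4 WT peaks near them. The tallest of these, 7.20 kb into the gene and at the Gli word shown above, had a summit pileup (the number of extended tags at the summit) of 64 in WT, 72 in mutant and 96 in het. The peak 10.3 kb into the gene had 53 in WT, 51 in mutant and 74 in het. The peak at the 5′ end, which also holds the Gli word, was lower, with 28 in WT and 34 in het. The mutant and het lists each split it into 2 peaks. In mutant, 1 of 23 covers the WT summit and 1 of 30 has its summit 405 bp away. In het, the peak of 34 covers the WT summit and the other had 29. The fourth, 0.89 kb into the gene, had 26 in WT as well as in mutant and no het peak. At the tallest of the 4, the ratio of mutant to WT pileup, each scaled to its tags, was 1.11-fold with a 95% counting interval of 0.782 to 1.58, and the intervals of the other three pairs also contain no change (that at the 5′ end was paired with the mutant peak 405 bp away).

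The tallest peaks of Ptch1 were intronic. The GC-rich peak shown above, 5.55 kb into the gene, had 83 in WT, 76 in mutant and 127 in het, and the lowest mutant to WT ratio of the locus among pairs with a pileup of at least 20 in WT or mutant, at 0.904-fold. The peak 20.8 kb into the gene had 80 in WT, 76 in mutant and 108 in het, and another, 45.3 kb into the gene, 42 in WT, 39 in mutant and 57 in het. Beside the second of these, the small peak at chr13:63551949-63552109 had 18 in WT and 32 in mutant, with ranks of 7.13 and 61.1%. It had the highest ratio at Ptch1, a log2 value of 0.81 whose counting interval, -0.06 to 1.73, spans 0, and het held it at 42 and a rank of 51.0%.

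Smo, the signal transducer, had the same pileup in WT and mutant at both of its strong peaks. Its start peak had 54 in WT, 54 in mutant and 60 in het. The intronic peak at chr6:29747908-29748997 likewise had 54 in WT and 54 in mutant, at ranks of 92.4 and 92.6%. Het had no peak over this WT summit. The het peak that overlaps the WT peak, at chr6:29748305-29748594, had 15 and a rank of 20.3%. Mutant had a separate peak of 52 there. The values of 54 and 15 therefore belong to summits at different places. The WT summit lies in the tandem repeat shown above, in which the letters CTGT occur 36 times in 201 bases. Only 41 different 6-letter words occur in it where 196 are possible, against a median of 187 over all WT windows, and no other member had fewer than 163.

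Overlap with any part of a WT peak, not with its summit, was counted over all windows of simple sequence. By this count the Smo repeat peak has a het peak, so these shares do not measure the pattern at its summit. Of 497 WT peaks with under 100 different 6-letter words, 24.5% had a het peak and 59.6% a mutant peak, against 63.1% and 77.2% of all WT peaks. Among the 15301 WT peaks with a rank over 90%, 22 were of this kind. Of these 22, 18 (81.8%), the Smo repeat peak among them, had a het peak, against 99.8% of the 15301. The study's methods describe keeping uniquely aligned reads with bowtie, which the het header names, whereas the WT and mutant headers name another aligner. Whether this or the genotype leaves het without a peak over the repeat summit was not tested.

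The lowest ratio at Smo was that of the intronic peak shown above, 20.7 kb into the gene. It had 22 in WT, 12 in mutant and no het peak, a log2 ratio of -0.89 with a counting interval of -2.04 to 0.18, and ranks of 61.7 and 15.1%. The Gli-word peak between Tspan33 and Smo had 28 in WT, 29 in mutant and 44 in het, with a log2 ratio of 0.03. The tallest peaks of the window belong to the neighbouring genes, with 76 in WT and 78 in mutant at a start of Tspan33 and 65 and 67 at a start of Ahcyl2. Every one of the 13 WT peaks and 15 mutant peaks of the Smo locus had a counterpart in the other list.

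Hhip, which sequesters the ligand, had its tallest peak at its start. This peak, whose upstream side is shown above, had 48 in WT, 53 in mutant and 70 in het. A second peak just upstream of the start had 25 in WT and 21 in mutant, the lowest ratio of the locus at 0.830-fold, and was part of the same wide peak in het. Inside the gene, the peak 19.9 kb from the start had 36 in WT, 36 in mutant and 42 in het. Among pairs with a pileup of at least 20, the highest ratio was 2.01 kb from the start, with 27 in WT, 39 in mutant and 34 in het, a log2 ratio of 0.51 with an interval of -0.23 to 1.28. A downstream peak 113.8 kb from the start had 20 in WT, 21 in mutant and 22 in het. These peaks of Hhip were therefore open in each genotype, with WT and mutant intervals that span no change.

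Boc, a co-receptor of the immunoglobulin superfamily, carried a series of tall intronic peaks. The tallest, shown above with its 2 CAGCTG E-boxes, had 70 in WT, 74 in mutant and 125 in het. The next, 51.7 and 27.8 kb into the gene, both had 58 in WT, with 55 and 67 in mutant and 99 and 72 in het. The start peak had 46 in WT, 52 in mutant and 68 in het, and the mutant list split it into 2 peaks. A narrow WT peak with 22 on the upstream side of the start, at chr16:44559102-44559195, overlapped no mutant peak, but the nearest was 87 bp away.

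The lowest ratio at Boc was that of the Gli-word peak 6.69 kb into the gene, which holds the Gli and Zic words 1 time each. It had 28 in WT and 18 in mutant and no het peak. The ranks were 67.5 and 36.5%, and the log2 ratio was -0.66 with a counting interval of -1.60 to 0.25. The other 2 Gli-word peaks shown above had log2 ratios of 0.15 at Ptch1 and 0.03 in the Smo locus. The Gli-word peak at the 5′ end of Ptch1 had 28 in WT, and the mutant peak that covers its WT summit had 23 at its own summit. The highest ratio at Boc with a pileup of at least 20 was a log2 of 0.33 (interval -0.46 to 1.13), with 26 in WT and 33 in mutant, in the intronic peak at chr16:44494423-44494839.

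Cdon, the co-receptor related to Boc, had few strong peaks inside the gene. Its start peak had 33 in WT, 40 in mutant and 60 in het, and the upstream peak shown above, 18.2 kb from the start, 29 in WT, 32 in mutant and 35 in het. The tallest peaks of the window lay downstream of the gene, 1 near its 3′ end with 44 in WT, 50 in mutant and 69 in het, and 1 further towards Ddx25 with 44 in WT, 45 in mutant and 48 in het. The lowest ratio and the highest one with a pileup of at least 20 lay in exons of Ddx25, at 0.817-fold (29 in WT, 24 in mutant, no het peak) and 1.48-fold (16, 24 and 33 in het). The tall peaks of the Cdon window thus sat at the start or outside the gene, and the 3 intronic pairs had WT pileups of 8 to 12.

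Gas1, a co-receptor anchored to the membrane by a lipid, is a short gene whose start faces the long non-coding RNA Gm48488. The peak shown above, just upstream of the start, had 71 in WT, 62 in mutant and 81 in het. This was the lowest ratio of the locus, with a log2 ratio of -0.21 and an interval of -0.73 to 0.30. The peak inside the gene had 40 in WT and 42 in mutant, and in het it was joined to the former in 1 wide peak. A further peak 1.30 kb upstream had 42 in WT, 37 in mutant and 46 in het. The other Gas1 peaks, 1 of them at the far upstream end, were weak, with 10 to 13 tags in WT and mutant where both lists held them.

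Most WT peaks of the 6 loci were also called in mutant. Of 83 WT members 72 (86.7%, Wilson 95% interval 77.8 to 92.4) overlapped a mutant peak and 11 (13.3%) did not, against a background of 22.8% without one over all WT peaks. Of 101 mutant members 79 (78.2%, interval 69.2 to 85.2) overlapped a WT peak and 22 (21.8%) did not, against 30.7% over all mutant peaks. The members were stronger than the average WT peak, with a median −log10 q of 8.37 against 6.66, and over all WT peaks with a −log10 q of at least 5 the share with any mutant peak was 94.2%. With both lists limited to a −log10 q of at least 5, the shares were 88.7% at the 6 loci against 86.3% over all WT peaks, and 75.4% against 76.0% over all mutant peaks, so the members did not stand apart from the background there. These intervals cover counting error over peaks only.

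The peaks without a counterpart were weak. The 11 WT members had a median −log10 q of 3.80, against 10.8 in shared WT members, and the 22 mutant members one of 4.17, against 10.6. This holds for the lists as a whole, in which unshared peaks had a median −log10 q of 3.34 in WT and 3.81 in mutant. The strongest of the former was an intronic Hhip peak at chr8:79995206-79995380, with a pileup of 14 and a rank of 49.3%. The strongest of the latter, with a pileup of 15 and a rank of 55.7%, lay in an intron of Ddx25 in the Cdon window. At the other loci the strongest WT member without a mutant peak ranked 44.2% at Boc, 37.8% at Cdon, 21.7% at Ptch1 and 20.3% at Gas1, and the strongest mutant member without a WT peak 51.1% at Hhip, 45.3% at Boc and 42.3% at Ptch1. All of these lie in the lower or middle part of their lists. Of the 11 WT members, 5 had a mutant peak within 300 bp. By locus, mutant members without a WT peak numbered 7 of 25 at Boc, 7 of 21 at Cdon, 5 of 14 at Hhip, 3 of 19 at Ptch1, 0 of 15 at Smo and 0 of 7 at Gas1. WT members without a mutant peak numbered 4 of 21 at Boc, 3 of 17 at Ptch1, 2 of 16 at Cdon, 1 of 9 at Hhip, 1 of 7 at Gas1 and 0 of 13 at Smo.

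In het, 60 of the 83 WT members (72.3%, interval 61.8 to 80.8) had a peak, and 23 did not (27.7%, against 36.9% over all WT peaks). Of 61 het members, 8 had no WT peak (13.1%, against 13.3% over all het peaks) and 8 no mutant peak (13.1%, against 10.7%). Of 101 mutant members, 38 (37.6%) had no het peak, against 41.3% over all mutant peaks. The plot of shares shows that in every comparison that involves het the value of the whole list lies inside the interval of the members, for WT peaks in het near its lower end.

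**Figure D2:**
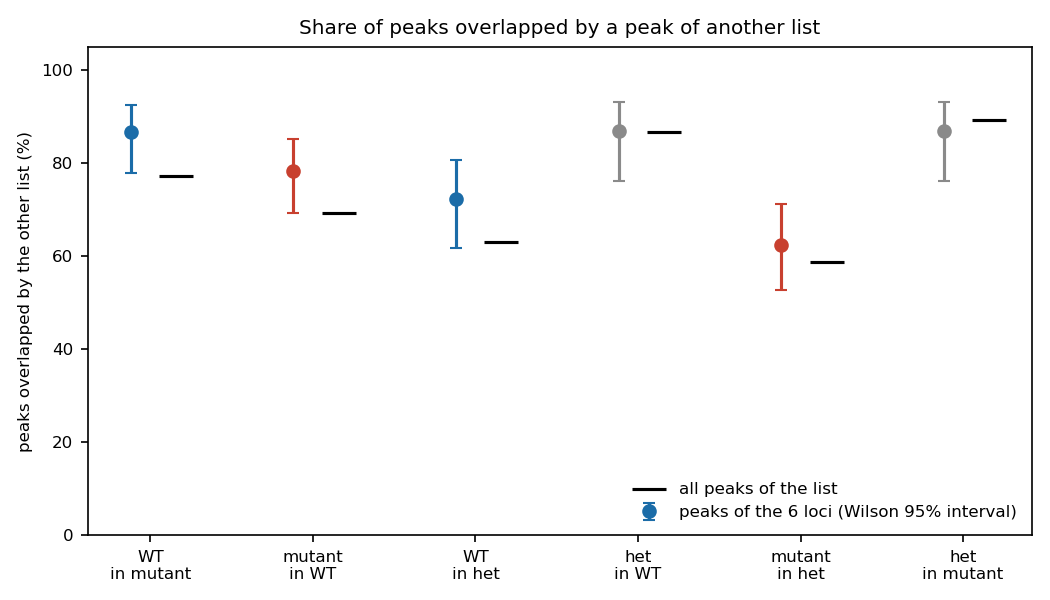
Percent of the peaks of 1 list overlapped by a peak of another list, with points and Wilson 95% intervals for the peaks of the 6 loci and black bars for all peaks of the list. The interval for WT peaks in mutant, 77.8 to 92.4%, starts just above the 77.2% of all WT peaks, and the intervals of the other comparisons contain the value of the whole list.

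Among the 72 shared WT members, heights in WT and mutant were close. Their median log2 ratio of mutant to WT tag-scaled pileup was 0.06, against 0.08 over all 118098 shared WT peaks, with 43 higher in mutant (59.7%, background 57.6%) and 29 lower. With the median over all shared peaks set to 0, this became 35 of 72 higher (48.6%). A ratio of at least 1.5-fold was reached upward by 5 (6.94%, background 8.37%) and downward by 2 (2.78%, background 3.61%). Both shares lie near the background. By locus the median log2 ratio was 0.03 at Ptch1, -0.02 at Smo, 0.12 at Hhip, 0.05 at Boc, 0.21 at Cdon and 0.07 at Gas1. At Cdon 11 of 14 shared peaks were higher in mutant, most of them with low pileups.

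Among pairs with a pileup of at least 20 in WT or mutant, 2 members lay below and 2 above a change of 1.5-fold. Over all 73114 such shared peaks, 3.53% lay below and 9.20% above. With so few members, no difference from the background is read from these counts. The 7 peaks past 1.5-fold are low in at least 1 list. The lower ones are the Smo and Boc peaks shown above, and the higher ones the Ptch1 peak shown above, a downstream peak of Hhip (11 in WT, 17 in mutant), 2 intronic peaks of Cdon (8 and 12 in WT, 13 and 19 in mutant) and a peak at the start of Ahcyl2. Of the 72 counting intervals, 71 span 0. The exception is the Ahcyl2 peak at chr6:29769128-29769416, with 18 in WT and 67 in mutant (log2 1.88, interval 1.11 to 2.72). Its mutant partner is a wide peak whose summit lies 906 bp away, where WT has a separate peak of 65, so that this value compares summits at different places. The same WT peak also overlaps a mutant peak of 15 with a nearer summit, which the pairing by −log10 q passed over. With the mutant peak of nearest summit as the partner, 6 ratios lay past 1.5-fold, 4 upward and 2 downward.

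**Figure D3:**
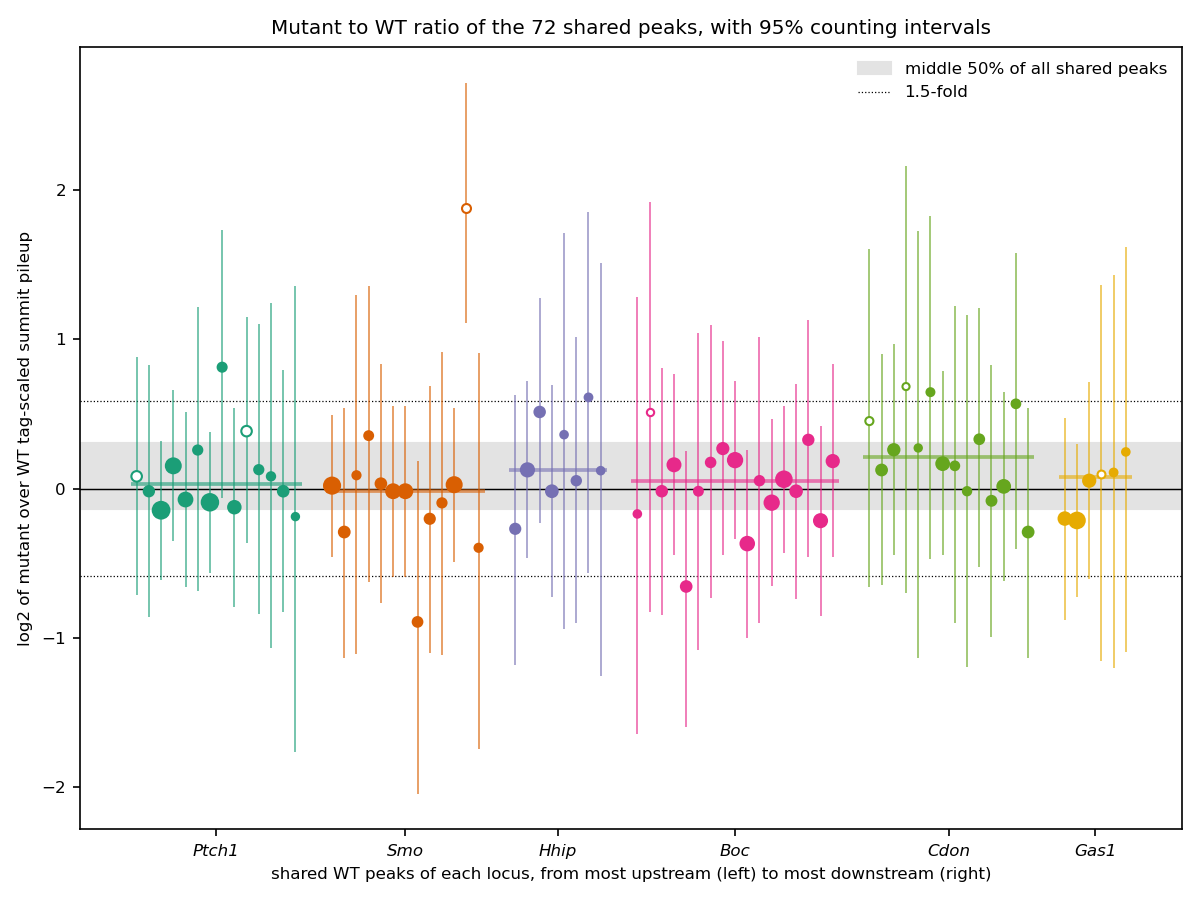
Log2 of mutant over WT tag-scaled summit pileup of each of the 72 shared WT peaks, ordered from upstream to downstream in each locus, with vertical 95% counting intervals, dot size rising with WT pileup, open dots for partners with summits over 100 bp apart, coloured bars for locus medians and grey for the middle 50% of all shared peaks. Large dots lie near 0, from -0.37 to 0.19 for WT pileups over 50, and only the open Smo dot at 1.88 has an interval that leaves out 0.

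When peaks of the 3 lists within 300 bp were joined, the 6 loci held 87 regions. All 3 lists shared 49 of them (56.3%, against 45.7% of all regions), and WT and mutant shared a further 11 without het (12.6%, background 12.7%). Mutant alone held 15 (17.2%, background 20.1%), WT alone 5 (5.75%, background 13.3%) and het alone 4 (4.60%, background 3.52%). The regions of mutant alone lay at Hhip (5), Cdon (5), Boc (3) and Ptch1 (2). The 4 of het alone were an intronic region of Smo, 2 regions downstream of Hhip and an exonic region of Cfap44 downstream of Boc, with pileups of 9 to 14 and ranks of 1.48 to 26.6%.

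**Figure D4:**
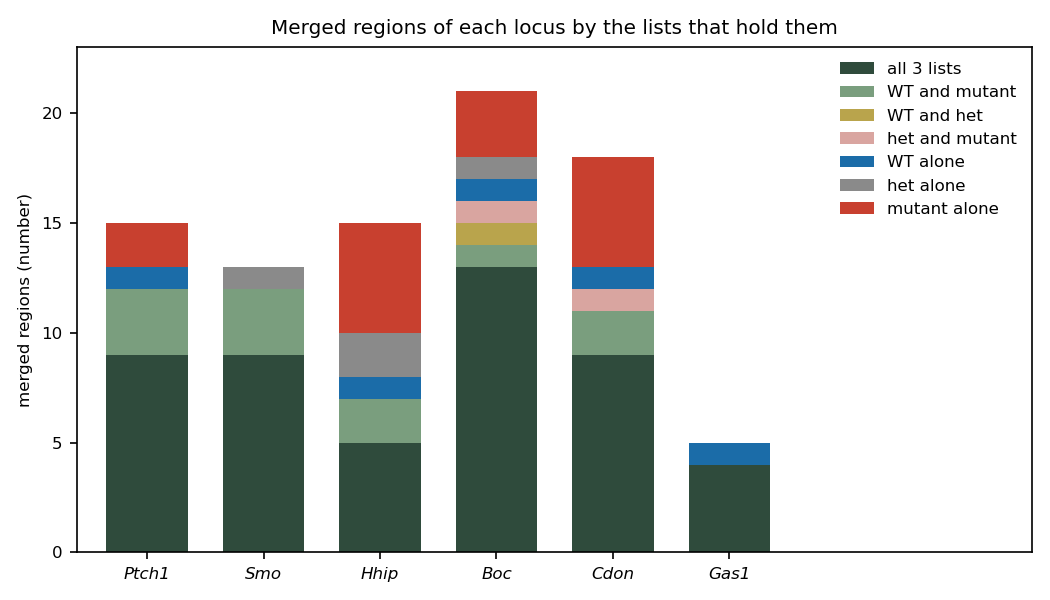
Number of merged regions (peaks of any list within 300 bp joined) at each of the 6 genes, stacked by the lists that hold them. Regions of all 3 lists are the largest part at Ptch1 (9 of 15), Smo (9 of 13), Boc (13 of 21), Cdon (9 of 18) and Gas1 (4 of 5), while Hhip has 5 of all lists and 5 of mutant alone among 15.

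Other genes of the pathway, 20 in all with the same 50 kb on either side, gave similar values. Summed over genes, their windows gave 359 WT, 281 het and 402 mutant peaks. Of these, 59 WT peaks (16.4%) had no mutant peak and 90 mutant peaks (22.4%) no WT peak. Of their 300 pairs, 21 (7.0%) lay above and 8 (2.67%) below a change of 1.5-fold, near the background shares above. Some of these windows overlap, so some peaks were counted repeatedly, and 348 WT peaks and 291 pairs were distinct. The median log2 ratio per gene was above 0 in 11 genes and below 0 in 9. Gli1, Gli2 and Gli3, the transcription factors of the pathway, had start peaks of 44, 61 and 63 in WT and 46, 62 and 62 in mutant. Sufu, the inhibitor of the Gli factors, had 65 in WT and 72 in mutant. Of the targets that drive division, Ccnd1 had 41 and 37 and Mycn 65 and 72. Among the ligands, Shh had no start peak in any list, and Ihh and Dhh had a weak one in WT, at ranks of 2.06 and 18.2%, and none in het or mutant.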

How the data were processed

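ATAC-seq was performed by the authors on GNPs of 3 Chd7 genotypes, and 3 narrow-peak lists, each called on pooled libraries, were analysed. The submitters' processing notes name mm10, Trim Galore 0.4.1, STAR 2.5.0b, Picard 1.139 and MACS2 2.1.0.20150731. Per the file headers, MACS2 was run without a control at a q-value cutoff of 0.05, with modelled fragments of 90 bp in WT and 88 bp in mutant from a STAR folder, whereas het reads, from a bowtie folder, were shifted by -100 bp and extended to 200 bp. The study's methods describe bowtie 1.0.0 and the shift without distinguishing genotypes. Which list is WT and which mutant was read from the names of the lists. The pileup signal deposited by the authors is a whole number of extended tags at the summit, not scaled to depth. The fold enrichment, a ratio over local background, and the −log10 q value were also deposited by the authors and depend on depth and tag extension.

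Pileups were divided here by the tags of each header (tag-scaled pileup). Peaks overlapping by at least 1 bp were shared, and the partner was the overlapping mutant peak of highest −log10 q. Ratios of 2 pileups have exact conditional binomial 95% counting intervals and shares Wilson 95% intervals. Neither covers library or mouse error, since each list pools its libraries. Both also take tags or peaks as independent, which PCR copies and neighbouring peaks are not. A change of 1.5-fold is a rule of size, not a test. Genes were those of GENCODE M21, locations were read at the summit, and sequence came from the GRCm38.p6 RefSeq assembly. Bases annotated as untranslated were left out. The 83 members, the gene lists and the words searched were chosen with earlier results of these data known. Peaks named per gene were those at its start sites, the 3 tallest others, the lowest and the highest ratio among shared peaks with a pileup of at least 20 in WT or mutant, the strongest unshared peak of each list, and regions of het alone. The Gli windows, and the count of 6-letter words in the Smo repeat, were chosen after seeing the values. All pooled columns were used, with 0 left without a group. The scripts, run with python 3.11.15, numpy 2.4.6, pandas 2.3.3, scipy 1.17.1, pysam 0.24.0 and matplotlib 3.10.9, were tested on simulated lists.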

Additional observations from a re-analysis of the deposited data

How the results depend on the processing

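With peaks pooled over libraries, leaving out a library could not be run. No paired analysis was possible because no list keeps the replicates apart. Of 44 alternative values for 6 results, 31 stayed within the counting interval, or within 1.5 times for counts, and 13 moved. With a reciprocal overlap of 50%, the shares of the 6 loci were 77.1% for WT in mutant, 63.4% for mutant in WT, 49.4% for WT in het and 67.2% for het in WT, against 64.1%, 56.2%, 50.1% and 71.6% over the whole lists. With only the first list limited to a −log10 q of at least 5, they were 96.2%, 88.4%, 81.1% and 95.7%, against 94.2%, 88.8%, 84.2% and 96.4%, so the excess of WT in het over the whole list did not hold under either setting. A mutant peak within 300 bp was found for 92.8% of WT members (80.7% of all), and an overlapping one for 92.7% of those nearest to the start of a member gene. The latter set holds no peak of the Gas1 locus. With all lists cut to their 106974 strongest peaks, het in WT was 75.4%, against 77.6%. The 7 ratios past 1.5-fold became 1 when each list was held to a −log10 q of at least 5 and 0 with a pileup of at least 20 in both. Either filter removes a peak that is low in 1 list, and so removes such changes by construction. With pairs limited to summits within 100 bp, an alternative chosen after seeing the data, 65 pairs remained, with a median log2 ratio of 0.03 and 5 past 1.5-fold. Depth limits single peaks, since a pileup of 28 against 18 has a counting interval that includes no change.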
